A study of Mus musculus with 2 samples.

Results

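The genes described here make and hold the hyaluronan and aggrecan gel of cartilage. They are the hyaluronan-binding proteoglycans *Acan* and *Vcan*, the link proteins *Hapln1* and *Hapln3*, the hyaluronan synthases *Has1*, *Has2* and *Has3*, the hyaluronidases *Hyal1* and *Hyal2*, and the hyaluronan receptor *Cd44*. Members were all probe sets annotated to one of these 10 genes alone. A probe set is several short DNA probes that together read the 3′ end of 1 transcript. There were 23 such probe sets for 9 of the 10 genes, among 34945 probe sets with 1 gene and 45037 in all. The rule uses the gene name and no signal. *Hyal1* had no probe set of its own.

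Primary cells of 2 kinds, from ICR mice at postnatal day 4, were compared, and the labels give neither a genetic change nor a treatment. SFZ cells came from the superficial zone, the surface layer of articular cartilage, of femur and tibia, and costal chondrocytes (CC) came from ribs after collagenase digestion. Both were grown in DMEM with 10% FBS, and biotinylated cRNA was made from 100 ng of total RNA. Each cell type was hybridised to 1 Affymetrix mouse genome array, so the samples have no replicate, no test was possible and differences are descriptions of these arrays. The sources used here do not give how many animals contributed to each RNA. Site of origin (joint or rib), cartilage zone and array differ together, and their effects cannot be told apart.

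Hyaluronan is an unbranched sugar polymer that synthases at the plasma membrane extrude directly into the matrix. Aggrecan molecules bind along it through their N-terminal domain, link protein locks each of these bonds, and the charged sugar chains of aggrecan draw in the water that lets cartilage carry load. Versican, encoded by *Vcan*, binds hyaluronan in the same way but is typical of mesenchyme and of immature matrix, where it gives way to aggrecan as cartilage forms.

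Signals are MAS5 values, linear intensities for each probe set. Array medians were 28.1 for SFZ cells and 32.0 for CC. A background level was set at the 95th percentile of 86 odorant, taste and vomeronasal receptor probe sets, and it was 28.2 in SFZ cells and 26.0 in CC. Where 1 of the signals lay at or under this level, a ratio is given only as a bound. A probe set was called when its brighter signal was over 100 and the ratio between the arrays was over 2. The surface marker *Prg4*, encoding lubricin, had SFZ and CC signals of 323 and 73.6, the only one of 8 superficial zone markers called in SFZ cells. Of the others *Vcam1*, at 35.7 and 354, *Sema3d*, at 210 and 802, and *Thbs4*, at 108 and 388, were called in CC. *Gdf5*, at 93.1 and 74.2, and *Erg*, at 113 and 65.2, had ratios toward SFZ cells and were not called. The same held for *Creb5*, at 38.4 and 19.0, where the CC signal under background leaves only a bound of 1.47. *Cilp*, at 13.6 and 21.4, was under background on both arrays. *Actb* was at 7578 and 9338. All 9 chondrocyte markers looked at were above background in SFZ cells and 8 of them in CC.

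Of the 23 member probe sets, 15 were above background on both arrays, 1 on the CC array only and 7 on neither. None was called higher in SFZ cells, against 0.947% of all probe sets with 1 gene. The 3 called higher in CC, against 4.33% of all, belonged to the same gene, *Vcan*. Among the 14 member probe sets with a signal over 100 on either array, 9 had ratios toward CC and 5 toward SFZ cells. The median log2 ratio of all probe sets with 1 gene, -0.16, was toward CC as well. Of the 14, 3 were called in CC and none in SFZ cells, against 10.4% and 2.27% of all probe sets this bright. By gene, 1 of 9 was called in CC, against 6.17% of 18193 genes, and 0 in SFZ cells, against 1.37%. The log2 of the SFZ/CC ratio had a median of -0.84 over the 8 member genes above background, or -0.81 with signals raised to background, and -0.21 over all 12477 genes above it.

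**Figure D1:**
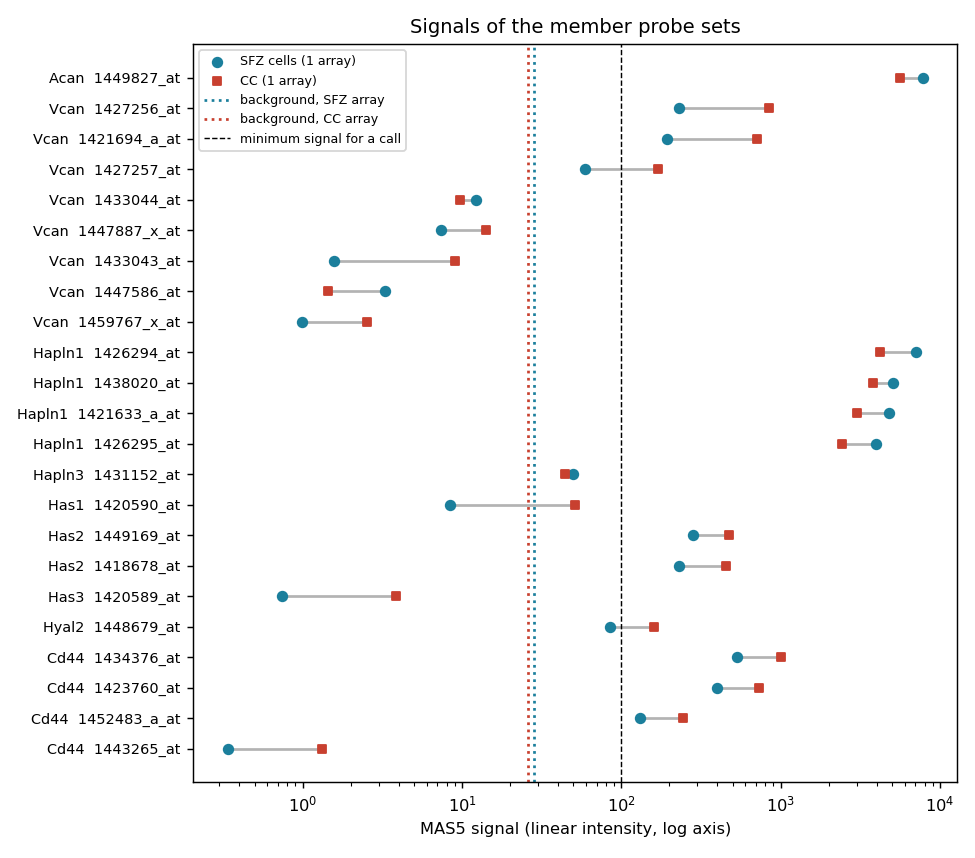
MAS5 signals of the 23 member probe sets on a log axis, with 1 SFZ array (circles) and 1 CC array (squares). The background of each array is dotted, at 28.2 and 26.0, and the minimum signal of 100 is dashed. *Acan* and *Hapln1* lie to the right with SFZ cells the brighter, and the 3 bright *Vcan* probe sets have the widest gaps of all that exceed background on both arrays.

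The core proteoglycan of cartilage, aggrecan, was brighter in SFZ cells. The single *Acan* probe set gave 7772 in SFZ cells against 5588 in CC. The ratio of 1.39 was not called. *Hapln1*, encoding the link protein that fixes aggrecan to hyaluronan, was brighter in SFZ cells on each of its 4 probe sets. Its SFZ and CC signals were 7055 against 4209, 5081 against 3800, 4774 against 3029, and 3931 against 2434. All 4 SFZ signals were thus above their CC partners, with ratios from 1.34 to 1.68, and none reached 2. The mean log2 ratio of *Hapln1* was 0.63 ± 0.14 (SD over 4 probe sets of the same 2 RNAs, which does not measure the spread between animals or cultures). Over 2048 genes with at least 3 probe sets exceeding background on each array, this SD had a median of 0.21.

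Among 2468 probe sets with mean signals between 1000 and 10000, the 5th to 95th percentiles of the log2 ratio ran from -0.82 to 0.65. Of the *Hapln1* probe sets, 3 lay above the upper limit, 1 of them only just at 0.66, while the fourth at 0.42 and *Acan* at 0.48 lay inside. The ratios of *Acan* and *Hapln1* stayed toward SFZ cells under all 5 treatments of the signals, up to 1.58-fold for *Acan* and 1.91-fold for *Hapln1*, both with scaling to equal medians.

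*Vcan*, the versican gene, went the other way. Its brightest probe set gave 231 in SFZ cells against 840 in CC, a CC/SFZ ratio of 3.64. On the next the signals were 193 and 711, a ratio of 3.68, and on the dimmest of the 3 above background they were 58.9 and 170, a ratio of 2.89. All 3 were called higher in CC, with a mean log2 ratio of -1.76 ± 0.20 (SD over 3 probe sets). Of the 2048 genes with at least 3 probe sets above background on both arrays, 2.15% had every one of these called in CC. The log2 ratios of the 3 also lay under the 5th percentile, -1.36, of 10889 probe sets with mean signals between 100 and 1000. The dimmest of the 3 only just entered this range, with a mean signal of 100.03. Among 7819 probe sets with mean signals between 25 and 100 the 5th percentile was -1.85, and the -1.53 of this dimmest one lay above that. The other 5 *Vcan* probe sets had signals from 0.996 to 14.2 and were under background on both arrays, so they give no ratio.

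In the RefSeq annotation of GRCm38.p6, which was used for names and neighbours, *Hapln1* and *Vcan* are neighbouring coding genes on chromosome 13, and *Acan* and *Hapln3* are neighbours on chromosome 7. *Hapln2* likewise neighbours *Bcan* on chromosome 3 and *Hapln4* neighbours *Ncan* on chromosome 8, so each link protein gene lies beside a proteoglycan gene of the hyalectan family. Within the first pair the ratios had opposite directions. The 4 log2 ratios of *Hapln1* ran from 0.42 to 0.75 and the 3 of *Vcan* from -1.88 to -1.53, without overlap. The difference of their means was 2.39 on the log2 scale, 5.23-fold, and a common scaling factor for an array does not alter it. The same difference between *Acan* and *Vcan* was 2.23. In the second pair, *Hapln3*, which encodes a link protein of wider expression, had SFZ and CC signals of 49.8 and 44.5 on its single probe set, a ratio of 1.12. Both signals were less than 100, and the log2 ratio differed from that of *Acan* by 0.31.

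Promoters of both neighbouring pairs are shown so that they can be set side by side, since the genes of the first pair had opposite ratios. They are the 250 bases before the RefSeq start of each gene in GRCm38.p6, 5′ to 3′ in the direction of transcription: *Hapln1* at chr13:89540386-89540635, + strand, *Vcan* at chr13:89742513-89742762, - strand, *Acan* at chr7:79052976-79053225, + strand, and *Hapln3* at chr7:79131019-79131268, - strand. In both pairs the genes lie on opposite strands. Capitals mark matches on either strand to 5 motifs, which were the GC box with the letters GGGCGG, the box of letters CCAAT, the box of letters TATAAA, the AP-1 motif read as TGANTCA and the SOX motif read as AACAAT. The TATAAA and SOX matches of *Hapln3* overlap, as do 2 GC boxes of *Acan*.
Hapln1: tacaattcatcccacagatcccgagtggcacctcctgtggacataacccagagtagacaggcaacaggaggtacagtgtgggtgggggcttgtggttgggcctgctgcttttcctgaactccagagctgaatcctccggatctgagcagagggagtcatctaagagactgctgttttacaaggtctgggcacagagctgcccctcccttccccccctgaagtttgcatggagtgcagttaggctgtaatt
Vcan: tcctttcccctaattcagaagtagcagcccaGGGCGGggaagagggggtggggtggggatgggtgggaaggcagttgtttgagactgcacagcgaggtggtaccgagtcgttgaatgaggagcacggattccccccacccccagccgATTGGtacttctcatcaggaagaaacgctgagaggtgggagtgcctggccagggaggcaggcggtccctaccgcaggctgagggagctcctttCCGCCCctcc
Acan: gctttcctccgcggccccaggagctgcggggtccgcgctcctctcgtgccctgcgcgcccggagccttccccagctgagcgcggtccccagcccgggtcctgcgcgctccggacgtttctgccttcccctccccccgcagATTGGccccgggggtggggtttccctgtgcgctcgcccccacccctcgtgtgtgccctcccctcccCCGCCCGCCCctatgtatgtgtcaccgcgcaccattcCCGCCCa
Hapln3: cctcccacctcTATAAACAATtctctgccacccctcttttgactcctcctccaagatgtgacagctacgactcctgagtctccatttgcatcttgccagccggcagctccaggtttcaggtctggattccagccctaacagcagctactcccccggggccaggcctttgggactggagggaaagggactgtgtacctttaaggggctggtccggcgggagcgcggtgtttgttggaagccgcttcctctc

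The promoter of *Vcan* held 2 GC box matches and 1 CCAAT match, and that of *Acan* 3 and 1, whereas that of *Hapln1* held none of the 5 motifs. The promoter of *Cd44*, which was brighter in CC, also held none of them. Of 32851 promoter windows of this length, 32.7% held the GC box, 33.8% the CCAAT motif, 12.4% the TATAAA motif, 6.75% the AP-1 site and 9.42% the SOX site. The G and C content was 74.4% for *Acan*, 62.4% for *Vcan*, 58.0% for *Hapln3* and 54.4% for *Hapln1*, against a median of 52.4%. These matches are letters only, and binding was not measured. Windows were found for 8 of the 10 genes, not for *Has2* and *Has3*.

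**Figure D2:**
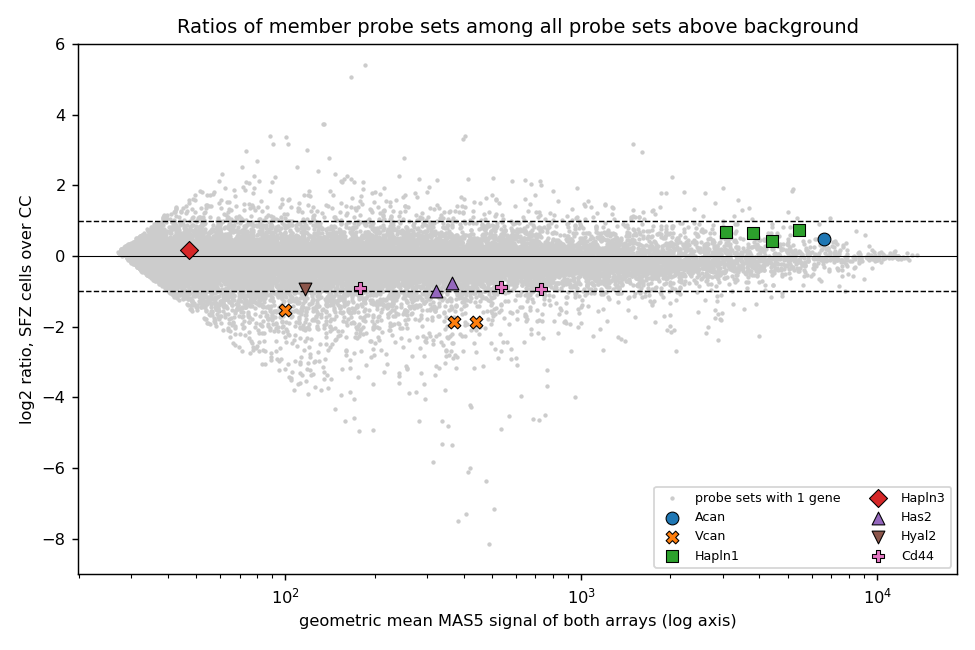
Log2 SFZ/CC ratio against the geometric mean signal (log axis), 1 array each, for probe sets above background on both arrays. Grey points are all such probe sets with 1 gene, coloured symbols are the 15 member probe sets, and the dashed lines stand at ratios of 2 toward either cell type. *Hapln1* and *Acan* lie above 0 at high signal, and *Vcan* lies under the lower dashed line.

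Of the synthases, *Has2*, which makes most of the hyaluronan of the embryo and of growth cartilage in the mouse, was brighter in CC. Its 2 probe sets gave 280 in SFZ cells against 475 in CC, and 230.1 against 453. The CC/SFZ ratios were 1.70 and 1.97, so both fell short of 2, the second by little. *Has1*, a synthase with lower activity in cells, was at 8.36 in SFZ cells, under background, and 51.0 in CC, at least 1.81-fold higher and too dim for a call. *Has3*, which makes shorter chains, was at 0.747 and 3.86, under background on both arrays. *Has2* was thus the only synthase gene above background in SFZ cells.

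*Hyal2*, encoding a hyaluronidase anchored to the cell surface, gave 84.3 in SFZ cells against 160 in CC, a CC/SFZ ratio of 1.90. *Hyal1*, which encodes the lysosomal hyaluronidase and lies beside *Hyal2* on chromosome 9, shares both of its probe sets with its neighbour *Naa80*, an actin acetyltransferase gene. These shared probe sets had signals of 76.7 and 79.8, and of 137 and 88.3, in SFZ cells and CC. No value was therefore assigned to *Hyal1*.

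*Cd44*, the main cell surface receptor for hyaluronan, gave nearly the same ratio on 3 probe sets. Signals in SFZ cells and CC were 531 and 1007, 396 and 727, and 131 and 245. All 3 were brighter in CC, by 1.84 to 1.90-fold, and none was called. The mean log2 ratio was -0.90 ± 0.02 (SD over 3 probe sets). The remaining *Cd44* probe set was at 0.339 and 1.33, under background. The log2 ratios of *Cd44*, *Has2* and *Hyal2* lay between -0.98 and -0.76, inside the 5th to 95th percentiles of -1.36 to 0.61 of probe sets of like signal. In order of the ratio on the brightest probe set, toward SFZ cells first, the genes above background on both arrays were *Hapln1*, *Acan*, *Hapln3*, *Has2*, *Cd44*, *Hyal2* and *Vcan*. *Has2*, *Cd44* and *Hyal2* differed among themselves by less than 0.21, the median SD between probe sets of 1 gene.

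**Figure D3:**
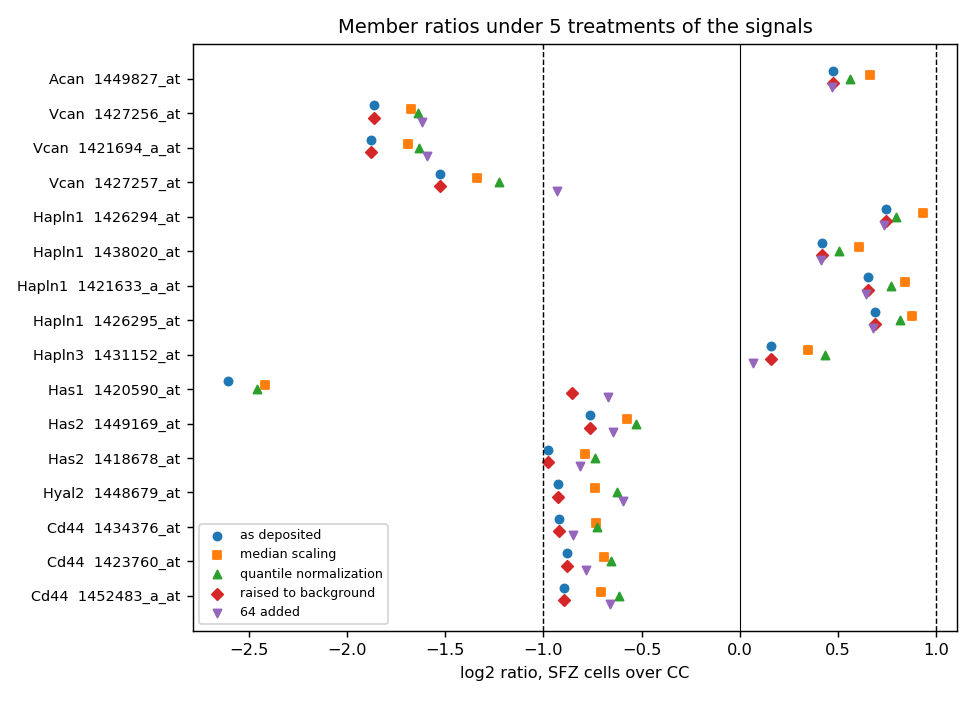
Log2 SFZ/CC ratios of the 16 member probe sets above background on at least 1 array, 1 array per cell type, under 5 treatments of the signals. Dashed lines mark a ratio of 2. No probe set changes side of 0, the dimmest *Vcan* probe set shown moves inside the line with 64 added to both signals, and the values of *Has1* outside the lines rest on an SFZ signal under background.

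*Vcan*, *Has2*, *Hyal2* and *Cd44* are also expressed by fibroblasts, muscle precursors or macrophages, and markers of such cells were brighter on the CC array. Of 7 fibroblast markers 6 were called in CC, where 6.17% of all genes were called. Signals summed over the list, on the brightest probe set of each gene, were 8439 in SFZ cells and 18740 in CC. *Col3a1*, at 6421 and 8516 on its brightest probe set, was called only on another. All 8 skeletal muscle markers were called, with sums of 167 and 27281, as were the 5 adipocyte markers on the array, with 1012 and 11484. Of 6 macrophage markers 4 were called, with sums of 448 and 2016. None of 5 endothelial markers was called, all 5 were under background in SFZ cells, and their sums were 62.5 and 156. No marker was listed at 0. The 8 superficial zone markers had sums of 934 and 1797, while the median log2 ratio of the 7 above background was 0.33, toward SFZ cells. The part of the other cell types in the ratios of *Vcan*, *Has2*, *Hyal2* and *Cd44* was not tested. Neither was their part in the ratios of *Acan* and *Hapln1*, or in the difference between *Hapln1* and *Vcan*. More cells of a type cannot be told apart from more RNA per cell. Chondrocyte markers summed to 60443 and 47925. Of 9, 2 were called in SFZ cells and none in CC, beside 1.37% and 6.17% of all genes.

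Other enzymes that cut or clear hyaluronan were read from a list of 10, of which 9 were on the array and 4 above background. Of these, 2 were called in CC and none in SFZ cells, where 6.17% and 1.37% of all genes were called. All muscle and adipocyte markers on the array and most fibroblast and macrophage markers, given above, were called in CC beside these enzymes and the proteases and receptors that follow, and their part in those ratios was not tested either. *Cemip*, needed in mouse for hyaluronan breakdown outside the lysosome, gave 77.7 in SFZ cells against 380 in CC, a ratio of 4.89. *Cemip2*, encoding a transmembrane protein with hyaluronidase activity in mouse, was at 101 and 289, a ratio of 2.87, and was called on both probe sets above background. *Gusb*, a lysosomal glucuronidase, was at 449 and 776 and was not called. *Hyal3*, *Hyal4*, *Hyal5*, *Hyal6* and *Spam1* were under background on both arrays.

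Proteases that cut aggrecan and versican, and their inhibitors, formed a list of 12, with 10 above background. In CC 6 were called and none in SFZ cells, beside the same 6.17% and 1.37% of all genes. The median log2 ratio, with signals raised to background, was -1.25, and -0.18 over all genes above background. *Mmp13*, a collagenase that also cuts aggrecan, gave 239 in SFZ cells against 3784 in CC, a ratio of 15.9. The aggrecanase genes *Adamts4* and *Adamts5* were at 43.0 and 233, and at 336 and 854, ratios of 5.43 and 2.54, and *Adamts5* was called on all 3 probe sets above background. *Adamts15*, which cuts versican, reached 104 in CC against a signal under background in SFZ cells, at least 3.69-fold higher. *Mmp3* had a ratio of 3.31 and *Mmp14* of 2.23. *Mmp14* and *Adamts15* were no longer called after either scaling, nor *Mmp3* and *Adamts15* with 64 added. The 6 called genes all encode proteases. *Adamts1* and *Adamts9* had CC/SFZ ratios of 1.15 and 1.23 and were not called. Of the inhibitor genes, *Timp1* was at 2082 and 3593 and *Timp3* at 7877 and 7061, and neither was called. All 4 *Timp3* probe sets were brighter in SFZ cells, by 1.12 to 1.52-fold.

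Other hyaluronan receptors and binding proteins formed a list of 18, with 13 above background. In CC 3 were called and none in SFZ cells, beside 6.17% and 1.37% of all genes. *Hmmr*, a hyaluronan-binding protein that also works at the mitotic spindle, gave 56.4 in SFZ cells against 234 in CC, a ratio of 4.15. On its other probe sets above background the CC/SFZ ratios ran from 2.43 to 2.81, and the lowest of these was not called. Beside *Hmmr*, all 4 cell cycle markers on the array were called in CC, with summed signals of 1006 and 3084. Their part in the *Hmmr* ratio was not tested. *Tnfaip6*, which carries heavy chains onto hyaluronan, was at 57.6 and 213, a ratio of 3.70. *Lyve1*, a receptor of lymphatic vessels and of some macrophages, was called on 1 of its 2 probe sets, at 1.03 in SFZ cells against 153 in CC, at least 5.42-fold higher in CC. The other, which has the higher mean log2 signal and stands for *Lyve1* in the list median, was at 6.16 and 54.3, at least 1.93-fold higher and too dim for a call. The macrophage and endothelial sums given above stand beside *Lyve1*, and their part was not tested. *Layn*, encoding the receptor layilin, was at 25.7 and 70.6, at least 2.51-fold higher in CC but under the minimum signal. The median log2 ratio of this list, with signals raised to background, was -0.32, and -0.18 over all genes above background. Of the remaining hyalectan and link protein genes, *Hapln2*, *Hapln4* and *Bcan*, known from the nervous system, had signals from 23.0 to 38.9 and *Ncan* was under background, and none of the 4 was called.

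**Figure D4:**
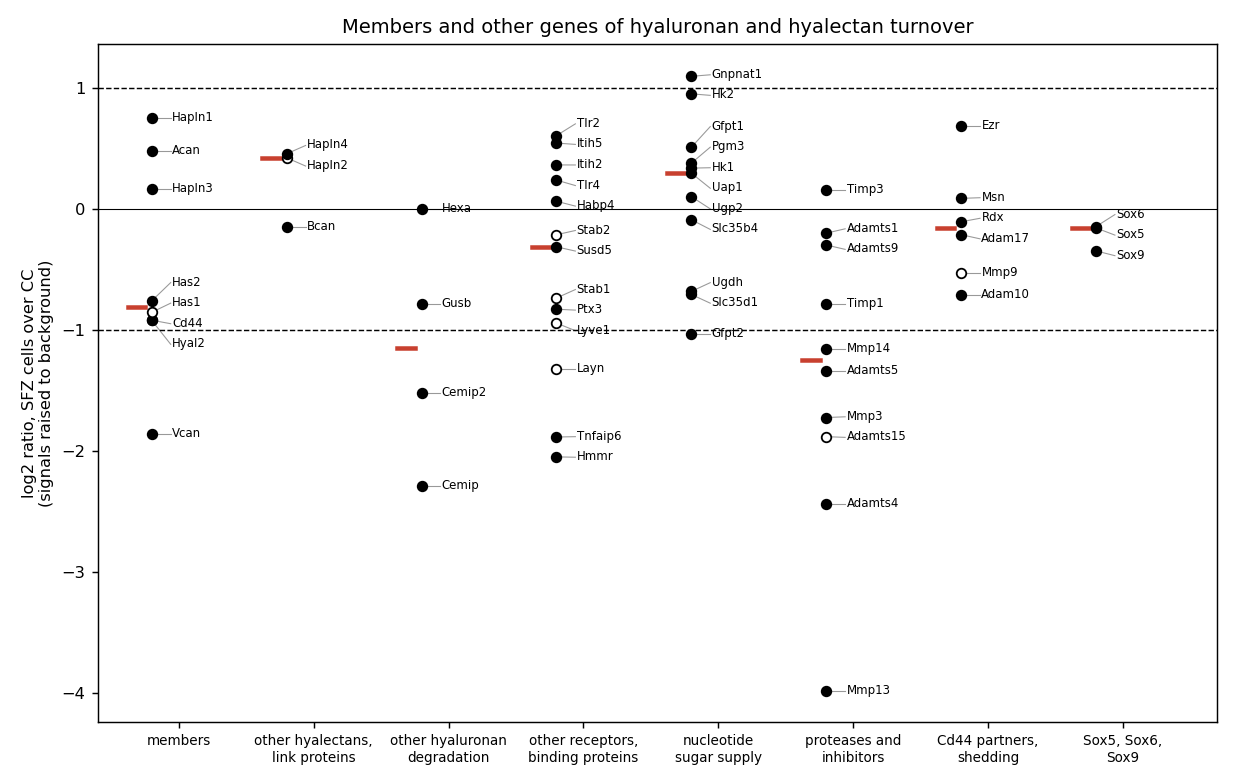
Log2 SFZ/CC ratios, 1 array each, on the brightest probe set of every gene above background, for the members and 7 lists of related genes, with signals raised to background. Filled points were measured on both arrays, open points are bounds, red bars are medians and dashed lines mark a ratio of 2. The protease list has the lowest median at -1.25, with *Mmp13* at -3.99, and among the members *Vcan* is lowest at -1.86.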

How the data were processed

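Total RNA of cultured SFZ cells and CC was hybridised to 1 Affymetrix array per cell type. The values the authors deposited are linear intensities, made with MAS5 according to the submitters' processing notes. The sources used here give neither the version of MAS5 nor its scaling target or detection calls. Signals were used as deposited, after 64 control probe sets were left out.

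Gene names came from the platform annotation. Of 34945 probe sets with 1 symbol, 34741 were matched by Entrez identifier to RefSeq of GRCm38.p6, and 0 symbols changed. A further 932 had several symbols and 9160 were unnamed here. Calls used the study's thresholds, a signal over 100 and a ratio over 2, and their mirror image for CC. A gene was called where any of its probe sets passed. For medians and lists each gene was read from its probe set of highest mean log2 signal. The number of arrays limits the precision, and no test was run.

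Named genes were all members, up to 4 genes per list with the largest ratios after signals were raised to background, and every called gene of a list. *Gfpt1* was added beside *Gfpt2*, *Ugdh* beside *Slc35d1*, and *Adamts1*, *Adamts9*, *Timp1* and *Timp3* for the protease list. All superficial zone markers were also named. Members and lists were chosen with earlier results of these data known. Alternatives were quantile normalization, scaling to equal medians, a floor at background, 64 added to each signal, other thresholds and other rules for probe sets. The counting was tested on simulated arrays, with planted changes well over a ratio of 2 in bright probe sets. That test does not describe calls near this ratio or on dim probe sets. Python 3.11.15, numpy 2.4.6, pandas 2.3.3 and matplotlib 3.10.9 were used.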

Additional observations from a re-analysis of the deposited data

How the results depend on the processing

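No member ratio above background changed direction with quantile normalization, scaling to equal medians, a floor at background or 64 added. The 3 *Vcan* probe sets were called under the first 3 of these, and 2 of them with 64 added. Over all probe sets with 1 gene the median log2 ratio moved from -0.16 to 0.03 after scaling and to 0.08 under quantile normalization, and the share of calls toward SFZ cells from 18.0% to 31.8% and 37.1%. The median log2 ratio of the member genes was -0.58 with quantile normalization and -0.62 with 64 added. At a ratio over 1.5, 3 probe sets of 1 gene, *Hapln1*, were called in SFZ cells, and 9 probe sets of 4 genes in CC, those of *Vcan*, *Has2*, *Hyal2* and *Cd44*, while 2.56% of all probe sets with 1 gene and 3.56% of all genes were called in SFZ cells and 8.70% and 12.3% in CC. At a minimum signal of 50, 2 genes were called in CC, *Has1* being added on an SFZ signal under background, while 8.50% of all genes were. If all probe sets of a gene were required to pass, CC had 0 called genes, since *Vcan* has 5 dim probe sets, and 1 where only those above background had to, an alternative chosen after seeing the data. No paired analysis was possible because each group has 1 array. With 1 array per cell type the variation between arrays of 1 cell type is unknown, and the background level limits the ratios of dim probe sets such as that of *Has1*.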

Other observations

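Genes that make or carry nucleotide sugars, among them those of hyaluronan, went both ways. All 11 of this list were above background on both arrays. Their median log2 ratio was 0.29, and -0.18 over all genes above background, with signals raised to background. In SFZ cells 1 was called and 1 in CC, beside 1.37% and 6.17% of all genes. *Gnpnat1*, an acetyltransferase of hexosamine synthesis, gave 2226 in SFZ cells against 1043 in CC, a ratio of 2.13, and was called under each of the 3 other treatments tried, which were chosen after seeing the data. *Gfpt2*, encoding a form of the first enzyme of that path, was at 202 and 415, a CC/SFZ ratio of 2.06, and was called under none of the 3. *Gfpt1*, encoding another form, was brighter and went the other way. Its brightest probe set was at 3816 and 2685, an SFZ/CC ratio of 1.42, and was not called. The hexokinase gene *Hk2* was at 1671 and 865, a ratio of 1.93, and was called in SFZ cells after either scaling. Calls in SFZ cells and CC numbered 2 and 0 with scaling to equal medians, 3 and 0 with quantile normalization, where *Hk1* was added, and 1 and 0 with 64 added. Over all probe sets with 1 gene, calls in SFZ cells rose from 331 to 537 with median scaling and 615 with quantile normalization. Calls in CC fell from 1512 to 1150 and 1041. *Slc35d1*, a nucleotide sugar carrier whose loss causes skeletal dysplasia in mouse, was at 337 and 551. *Ugdh*, of the same list, was at 1716.5 and 2758, a CC/SFZ ratio of 1.61, and was not called.

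The partners of the *Cd44* protein and the enzymes that shed it gave no call among 6 genes above background. *Ezr*, which ties *Cd44* to the actin cytoskeleton, gave 969 in SFZ cells against 605 in CC, *Adam10*, a sheddase, at 892 and 1461, and *Adam17* at 484 and 562. *Mmp9* was at 19.0, under background, and 40.7. The Sox genes that act on *Acan* and *Hapln1* in mouse cartilage were not called. *Sox9* gave 902 in SFZ cells against 1150 in CC, *Sox6* at 968 and 1073 and *Sox5* at 144 and 161, all toward CC as deposited while *Acan* and *Hapln1* were toward SFZ cells. The median log2 ratio of the 3 Sox genes was -0.16 as deposited, and 0.03 and 0.02 after median scaling and quantile normalization. The direction of this median thus depends on the scaling. As deposited it is the value of *Sox5*, and *Sox9* was lower at -0.35.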
